A study of Drosophila melanogaster with 18 samples.

Results

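The 26 entries described here are the Jonah and trypsin serine proteases of the fruit fly Drosophila melanogaster, found among the 14542 entries of each gene table as those with a symbol that starts with Jon and a digit or ends in Try. They comprise 16 Jonah and 10 trypsin entries, and 1 of the trypsin entries merges alphaTry with CG30025 and CG30031. RNA of whole animals was sequenced in 18 samples, 3 for each of 6 groups. The groups were trans-heterozygotes that carried the Nxt1 alleles DG05102 and Z2-0488, in a strain given as yw, and w1118 controls. Each genotype was taken at 3 successive stages, first wandering larvae, then stationary larvae, then white prepupae in the first hour of the pupal phase. The protein that Nxt1 encodes forms a dimer with the main export receptor of mRNA. What the alleles change in the gene is not stated, and genotype and strain cannot be told apart in any difference below.

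Jonah and trypsin genes encode small serine endopeptidases that the gut epithelium secretes to digest dietary protein. Trypsins cut after lysine or arginine, and most digestive serine proteases are made as inactive precursors that are cleaved in the gut lumen. Feeding stops when larvae leave the food, and the larval midgut is broken down and replaced during metamorphosis under the control of ecdysone. The number and letter in a Jonah name give the chromosome band, so genes such as Jon99Ci, Jon99Cii and Jon99Ciii are neighbours.

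Levels are FPKM, a measure of sequenced fragments that corrects for transcript length and sequencing depth, with 1 value per genotype and stage that the authors pooled over 3 samples. No spread between samples can therefore be given, and the depth of the samples is unknown. Every level, log2 fold change (trans-heterozygotes over w1118) and q comes from the authors' deposited table for the stage, the q being their p-value adjusted over all tested genes. The error after a log2 fold change is a standard error derived from their test statistic, and a gene was called at a q of at most 0.05. Rises and falls compare trans-heterozygotes with w1118 at the same stage, not stages with each other. Larvae ate food with 0.05% bromophenol blue; wandering animals had blue guts and stationary ones clear or pale guts, so gut content was itself a staging criterion. In whole animals fewer gut cells and less RNA per cell cannot be told apart. Nxt1 itself was not called at any stage, with 9.28, 15.5 and 17.9 FPKM in trans-heterozygotes and 11.6, 11.5 and 10.6 FPKM in w1118, in stage order. The 3 genes that mark the family were all detected in wandering larvae, Jon25Biii at 796 and 328 FPKM, Jon66Cii at 5.50 and 123 FPKM and etaTry at 21.2 and 27.3 FPKM in trans-heterozygotes and w1118.

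Levels of the family in wandering larvae ranged from 2.67 to 3497 FPKM in trans-heterozygotes and from 0.0731 to 2848 FPKM in w1118. A few Jonah genes carried most of the family's summed level. In wandering larvae the 26 entries summed to 16523 FPKM in trans-heterozygotes and 13394 FPKM in w1118, which was 2.21% and 1.73% of all FPKM. Jon65Aiv stood at rank 19 of all entries in trans-heterozygotes and rank 24 in w1118, with 3497 and 2795 FPKM. Jon65Aiii, its neighbour, had 2746 FPKM in trans-heterozygotes and 2848 FPKM in w1118. These were followed by the 99C genes Jon99Ciii, with 2087 and 1284 FPKM, and Jon99Cii, with 1911 and 1288 FPKM, in trans-heterozygotes and w1118. Among the trypsins the merged alphaTry entry and epsilonTry were the highest in w1118, at 479 and 318 FPKM, while kappaTry and lambdaTry stood at 1.86 and 0.0731 FPKM. At least 100 FPKM was reached by 19 of the 26 entries in trans-heterozygotes and by 15 in w1118.

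**Figure D1:**
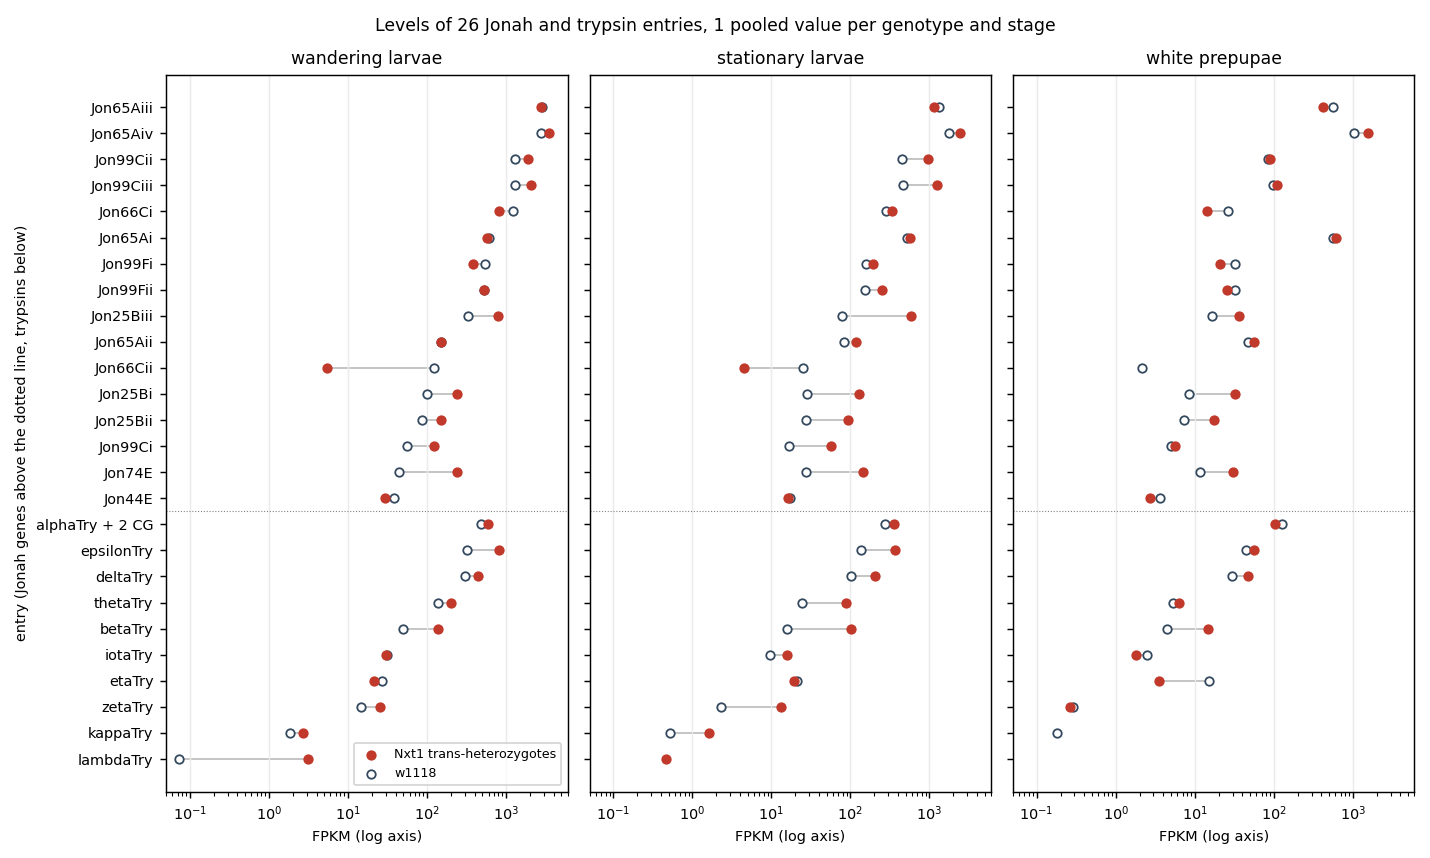
FPKM of the 26 entries (log axis) in trans-heterozygotes (filled) and w1118 (open), 1 pooled value each, at the 3 stages; values under 0.05 FPKM are not drawn. In wandering larvae Jon66Cii lies far to the left in trans-heterozygotes (5.50 FPKM against 123 FPKM in w1118), and in stationary larvae most filled points lie to the right.

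In wandering larvae the genotypes differed mainly at the 25B genes, Jon74E, 2 of the 99C genes and epsilonTry, which rose in trans-heterozygotes, and at the 66C pair, which fell. Of the 26 tested entries 7 were called higher and 2 lower, where 2.29% and 9.49% of all 10898 tested genes were called higher and lower. The median log2 ratio of FPKM + 1 was 0.44 over the 26 entries and -0.01 over all tested genes. The median standard error was 0.23 over the entries and 0.34 over all tested genes, so the share called is not read against genes of equal precision.

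Jon74E, which stands alone at its band, had 236 FPKM in trans-heterozygous wandering larvae and 44.4 FPKM in w1118 (log2 fold change 2.41 ± 0.23, q listed as 0). It rose 5.32-fold, more than any other called member at this stage. Jon25Biii had 796 FPKM in trans-heterozygotes and 328 FPKM in w1118 (1.28 ± 0.20, q = 9.67e-09). In the same cluster Jon25Bi, at 241 and 99.6 FPKM, rose 2.42-fold too, and Jon25Bii, at 151 and 86.6 FPKM, rose 1.74-fold. Thus all 3 genes of the 25B cluster were called higher. In the 99C cluster Jon99Ci rose to 121 FPKM in trans-heterozygotes, against 55.3 FPKM in w1118 (1.13 ± 0.23, q = 2.6e-05). Its abundant neighbour Jon99Ciii rose 1.62-fold (q = 0.0177), whereas Jon99Cii, with a log2 fold change of 0.57 ± 0.22, was not called (q = 0.0796).

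The largest called difference of the family in wandering larvae ran the other way. Jon66Cii had 5.50 FPKM in trans-heterozygotes and 123 FPKM in w1118, a 22.3-fold fall (-4.48 ± 0.43, q listed as 0). Jon66Ci, whose deposited locus ends 442 bases away, fell by much less, to 802 FPKM in trans-heterozygotes against 1228 FPKM in w1118 (-0.61 ± 0.21, q = 0.0283). The 2 genes thus shared a direction but not a size. The 4 genes of the 65A cluster and the 99F pair were not called, with log2 fold changes between -0.50 for Jon99Fi and 0.32 for Jon65Aiv. For Jon65Ai the 95% interval of the log2 fold change was -0.47 to 0.32, around levels of 574 and 603 FPKM in trans-heterozygotes and w1118. Jon99Fi had 381 FPKM in trans-heterozygotes and 539.8 FPKM in w1118 (q = 0.0954), and Jon99Fii next to it had 529.8 and 519 FPKM.

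Of the 10 trypsins 1 was called in wandering larvae. Their median log2 ratio, 0.53, was above the 0.18 of the Jonah entries, and their median standard error was larger too, at 0.37 against 0.22. epsilonTry rose to 811 FPKM in trans-heterozygotes, against 318 FPKM in w1118 (1.35 ± 0.41, q = 0.0118). Others lay above 0 without being called. thetaTry had 199.7 FPKM in trans-heterozygotes and 139 FPKM in w1118 (q = 0.0881), deltaTry had 440.4 and 305 FPKM (q = 0.0696), and zetaTry had 25.7 and 14.6 FPKM (q = 0.0999). betaTry had 139 FPKM in trans-heterozygotes and 49.4 FPKM in w1118, and with a standard error of 1.05 this 2.81-fold ratio was not called (q = 0.592). It shares its deposited locus with epsilonTry and the merged alphaTry entry. lambdaTry, named here after its values were seen, had 3.12 FPKM in trans-heterozygotes and 0.0731 FPKM in w1118 and was not called (5.41 ± 2.56, q = 0.204).

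In stationary larvae the family was higher in trans-heterozygotes across most of its clusters, with rises at 25B, 74E, 99C, 1 gene of 99F and 5 of the trypsins, and Jon66Cii again fell. The entries summed to 9403 FPKM in trans-heterozygotes and 5981 FPKM in w1118, a 1.57-fold ratio of pooled values. Of 25 tested entries 13 were called higher and 1 lower, where 4.70% and 13.2% of all 11128 tested genes were called higher and lower. The median log2 ratio was 0.77 over the tested entries and -0.04 over all tested genes. The level was higher in trans-heterozygotes for 21 of the 25 entries and for 5127 of all 11128 tested genes.

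Jon25Biii had 576 FPKM in trans-heterozygous stationary larvae and 79.0 FPKM in w1118 (2.86 ± 0.22, q listed as 0). This 7.29-fold rise was the largest of any called member at this stage. Jon25Bi, at 129.9 FPKM in trans-heterozygotes and 27.9 FPKM in w1118, rose 4.66-fold, and Jon25Bii, at 93.8 and 27.4 FPKM, rose 3.42-fold. Jon74E rose 5.25-fold, at 144 FPKM in trans-heterozygotes and 27.4 FPKM in w1118 (2.39 ± 0.24). All 3 genes of 99C were called higher. Jon99Ciii had 1234 FPKM in trans-heterozygotes and 464 FPKM in w1118 (1.41 ± 0.21, q = 1.39e-09), Jon99Cii had 956 and 444 FPKM (q = 4.27e-06), and Jon99Ci had 56.9 and 16.9 FPKM (q = 6.75e-08). In the 99F pair Jon99Fii rose 1.67-fold, to 251 FPKM in trans-heterozygotes against 151 FPKM in w1118 (q = 0.00309), and Jon99Fi, at 194 and 159 FPKM, was not called (q = 0.446).

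Of the 9 tested trypsins 5 were called in stationary larvae, all of them higher. thetaTry rose 3.66-fold, at 88.9 FPKM in trans-heterozygotes and 24.3 FPKM in w1118 (1.87 ± 0.26, q = 2.74e-11). epsilonTry had 368 FPKM in trans-heterozygotes and 135 FPKM in w1118 (q = 0.00151), and deltaTry had 206 and 102 FPKM (q = 4.11e-05). zetaTry, at 13.3 FPKM in trans-heterozygotes and 2.31 FPKM in w1118, rose 5.77-fold (q = 6.94e-05). betaTry was called by a narrow margin at 102 FPKM in trans-heterozygotes and 15.8 FPKM in w1118 (log2 fold change 2.69, 95% interval 0.74 to 4.65, q = 0.0409). With the same levels betaTry was not called in the start-site table (q = 0.0508) or the isoform table (q = 0.0585). The merged alphaTry entry and etaTry were not called, at 359 and 276 FPKM and at 19.4 and 21.1 FPKM in trans-heterozygotes and w1118 (q = 0.633 and 0.907).

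Jon66Cii had 4.45 FPKM in trans-heterozygous stationary larvae and 24.8 FPKM in w1118, a 5.58-fold fall (-2.48 ± 0.47, q = 2.03e-06). Jon66Ci next to it was not called, with 340.2 FPKM in trans-heterozygotes and 278 FPKM in w1118 (0.29 ± 0.21, q = 0.451). None of the 65A genes was called. Jon65Aiv, the most abundant member at this stage, had 2415 FPKM in trans-heterozygotes and 1754 FPKM in w1118 (q = 0.135), and Jon65Aiii had 1128 and 1329 FPKM (q = 0.567). Jon65Aii, the low gene of the cluster, had 118 FPKM in trans-heterozygotes and 82.5 FPKM in w1118 (q = 0.096).

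In white prepupae the calls went both ways. The 25B genes, Jon74E and Jon65Aiv were higher in trans-heterozygotes, and Jon65Aiii, Jon66Ci and etaTry were lower. The entries summed to 3243 FPKM in trans-heterozygotes and 2772 FPKM in w1118, a 1.17-fold ratio. Without Jon65Aiv the order turned, with 1713 FPKM in trans-heterozygotes and 1731 FPKM in w1118. Of 23 tested entries 5 were called higher and 3 lower, where 4.03% and 12.9% of all 10780 tested genes were called higher and lower. The median log2 ratio was 0.16 over the tested entries and -0.05 over all tested genes.

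The 25B genes and Jon74E were higher in trans-heterozygous prepupae too. Jon25Bi had 32.1 FPKM in trans-heterozygotes and 8.36 FPKM in w1118 (1.94 ± 0.34, q = 3.58e-07), Jon25Biii had 36.6 and 16.7 FPKM (q = 0.00126), and Jon25Bii had 17.5 and 7.29 FPKM (q = 0.00668). Jon74E had 30.1 FPKM in trans-heterozygotes and 11.6 FPKM in w1118 (1.38 ± 0.27, q = 6.4e-06). These 4 genes were the members called higher at all 3 stages.

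Within the 65A cluster 2 genes were called in prepupae, in opposite directions. Jon65Aiv rose to 1531 FPKM in trans-heterozygotes, against 1042 FPKM in w1118 (0.56 ± 0.14, q = 7.05e-04), while Jon65Aiii fell to 424 FPKM in trans-heterozygotes, against 567 FPKM in w1118 (-0.42 ± 0.15, q = 0.026). Jon65Ai was not called, with 616 and 559.6 FPKM in trans-heterozygotes and w1118 (q = 0.637), and neither was Jon65Aii, with 56.0 and 46.8 FPKM.

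etaTry, not called in either larval stage, fell to 3.56 FPKM in trans-heterozygous prepupae, against 15.1 FPKM in w1118 (-2.09 ± 0.49, q = 2.91e-04). Jon66Ci had 14.3 FPKM in trans-heterozygotes and 26.3 FPKM in w1118 (-0.88 ± 0.33) and was called by a narrow margin (q = 0.0481). Jon66Cii was listed at 0.00202 FPKM in trans-heterozygotes and 2.14 FPKM in w1118, and with a standard error of 15.3 it was not called (q = 0.790). The 99C genes were not called, Jon99Ciii standing at 110.2 FPKM in trans-heterozygotes and 98.1 FPKM in w1118 and Jon99Cii at 89.0 and 84.1 FPKM. The 99F pair was lower in level in trans-heterozygotes without being called, Jon99Fi at 20.6 and 32.7 FPKM (q = 0.0764) and Jon99Fii at 25.6 and 32.0 FPKM (q = 0.516).

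The trypsins called higher in trans-heterozygous stationary larvae were not called in prepupae. deltaTry had 47.6 FPKM in trans-heterozygotes and 30.0 FPKM in w1118 (0.67 ± 0.26, q = 0.0575). betaTry had 14.7 FPKM in trans-heterozygotes and 4.49 FPKM in w1118 (q = 0.228), and epsilonTry had 55.5 and 44.5 FPKM (q = 0.676). thetaTry stood at 6.25 FPKM in trans-heterozygotes and 5.25 FPKM in w1118. The merged alphaTry entry, the most abundant trypsin in prepupae of both genotypes, had 102 FPKM in trans-heterozygotes and 127 FPKM in w1118 (q = 0.545). zetaTry, at 0.260 and 0.291 FPKM, was not tested, nor were kappaTry and lambdaTry.

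**Figure D2:**
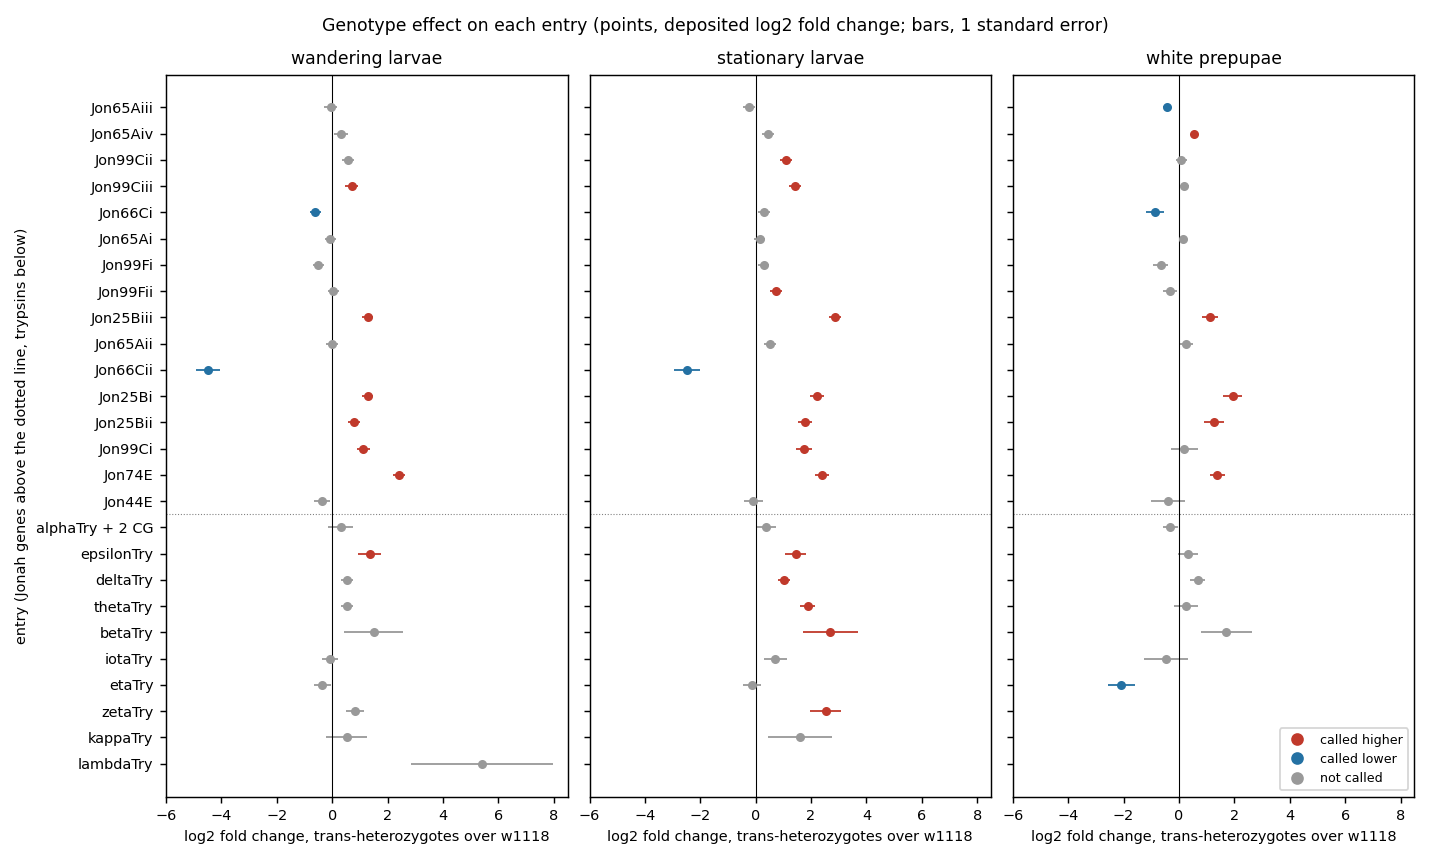
Deposited log2 fold change (trans-heterozygotes over w1118) of each entry and stage, with bars of 1 standard error; entries that were not tested, and Jon66Cii in prepupae with a standard error of 15.3, are not drawn. The points of 25B and Jon74E lie right of 0 in all 3 panels, and Jon66Cii lies at -4.48 and -2.48 in the larval stages.

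Over the 3 stages, 4 entries were called higher at every stage, 3 at 2 stages and 7 at 1 stage. Of the 11495 genes tested at 1 or more stages, 0.592% were called higher at 3, 2.24% at 2 and 4.24% at 1. Jon66Ci and Jon66Cii were each called lower at 2 stages, and Jon65Aiii and etaTry at 1, where 3.55% and 5.11% of all genes were. The other 8 entries were called at none, as were 77.3% of all genes, namely the merged alphaTry entry, Jon44E, Jon65Ai, Jon65Aii, Jon99Fi, iotaTry, kappaTry and lambdaTry. No member was called in opposite directions at different stages. The 4 of these that never reached 100 FPKM, Jon44E, iotaTry, kappaTry and lambdaTry, stayed at or under 29.9 FPKM in trans-heterozygotes and 38.4 FPKM in w1118.

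Levels of nearly every member were lower at each later stage. The order wandering, stationary, prepupae was descending for 25 of the 26 entries in trans-heterozygotes and for 24 in w1118. The share of all entries with this order was not counted. In trans-heterozygous prepupae the descent ended at 0 FPKM for kappaTry and lambdaTry and at 0.00202 FPKM for Jon66Cii. The authors scaled each stage separately, so ratios between stages are descriptions with no test. As a gauge of that scaling, the median wandering over stationary ratio of all entries at 1 FPKM or more was 0.93 in trans-heterozygotes and 0.896 in w1118. Over the members the same median was 1.82 in trans-heterozygotes and 3.06 in w1118. The median stationary over prepupae ratio of the members was 6.28 in trans-heterozygotes and 3.52 in w1118, the higher value now being that of the trans-heterozygotes. Over both steps the medians were 10.1 in trans-heterozygotes and 11.2 in w1118.

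The exception in both genotypes was Jon65Ai, with 574, 569 and 616 FPKM in trans-heterozygotes and 603, 513 and 559.6 FPKM in w1118 at the 3 stages in order. In w1118 the other was lambdaTry, listed at 0 at both later stages. Jon65Aiv had 3497, 2415 and 1531 FPKM in trans-heterozygotes and 2795, 1754 and 1042 FPKM in w1118. Its wandering over prepupae ratio, 2.28 in trans-heterozygotes and 2.68 in w1118, was far under the medians over the members given above. The same ratio of Jon66Ci was 56.1 in trans-heterozygotes and 46.7 in w1118, with 802, 340.2 and 14.3 FPKM in trans-heterozygotes and 1228, 278 and 26.3 FPKM in w1118. In the same order of stages Jon65Ai, Jon65Aiii and Jon65Aiv together made up 41.3%, 43.7% and 79.3% of the family's summed FPKM in trans-heterozygotes and 46.6%, 60.1% and 78.2% in w1118.

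**Figure D3:**
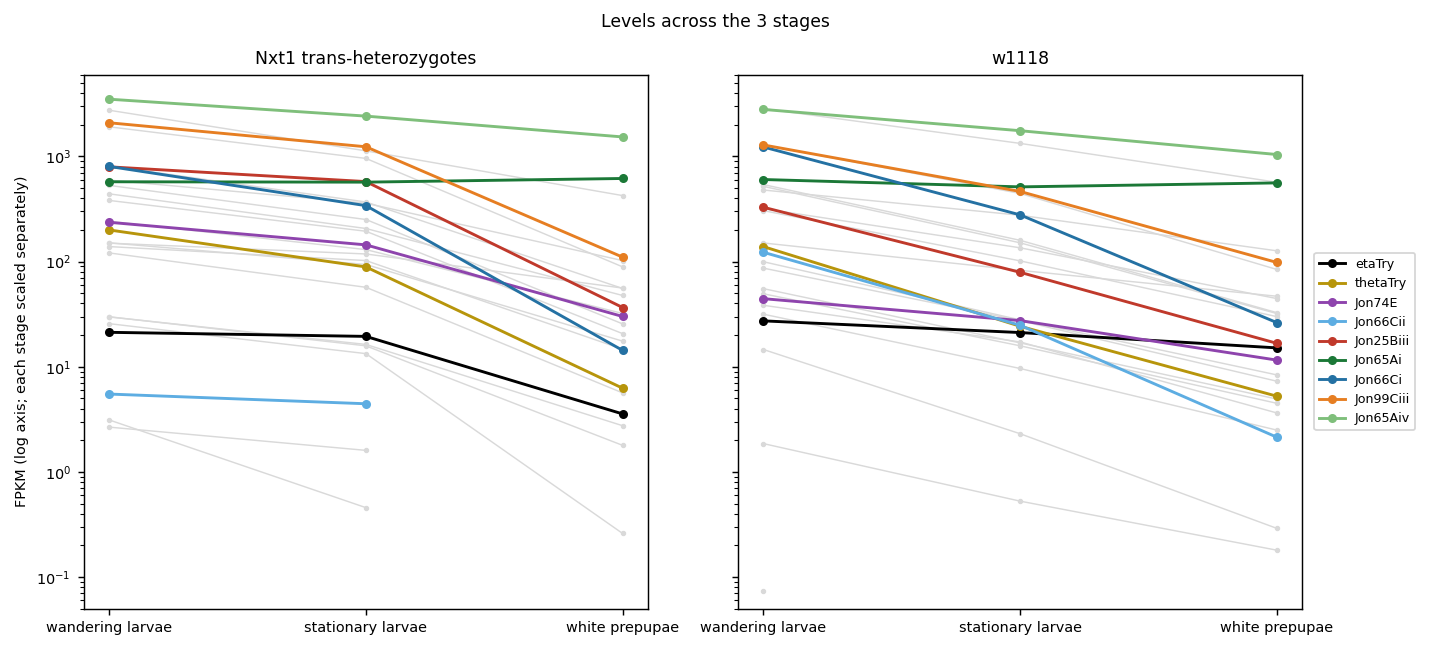
FPKM of the members (log axis) at the 3 successive stages, for trans-heterozygotes (left) and w1118 (right); 9 members are coloured, the others are grey, each stage was scaled separately, and values under 0.05 FPKM are not drawn. Jon65Ai stays between 569 and 616 FPKM in trans-heterozygotes and between 513 and 603 FPKM in w1118, while Jon25Biii has a wandering over stationary ratio of 1.38 in trans-heterozygotes and 4.15 in w1118.

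Whether the genotype effect itself differed between stages was tested per gene, as the difference of the 2 log2 fold changes with a two-sided normal test adjusted over all genes tested at both stages. Between wandering and stationary larvae the effect was larger at the stationary stage for 2 of 25 members, where 0.574% of 10459 genes passed in that direction, and it was smaller for none (0.0861% of genes, and 0.660% in either direction). The effect on Jon25Biii was larger by 1.59 ± 0.30 on the log2 scale (q = 5.88e-05) and that on thetaTry by 1.35 ± 0.33 (q = 0.0124). The difference was above 0 for 23 of the 25 members, with a median of 0.71 over members and -0.01 over all genes.

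Between stationary larvae and prepupae the effect was smaller in prepupae for 3 of 23 members, where 0.551% of 10338 genes passed in that direction, and larger for none (0.310% of genes, and 0.861% in either direction). The differences were -1.73 ± 0.37 for Jon25Biii (q = 7.07e-04), -1.24 ± 0.28 for Jon99Ciii (q = 0.00303) and -1.02 ± 0.29 for Jon99Cii (q = 0.0453). The difference was below 0 for 22 of the 23 members, with a median of -1.01 over members and 0.015 over all genes. Between wandering larvae and prepupae no member passed in either direction, where 0.614% of 10096 genes had a larger and 0.446% a smaller effect in prepupae, 1.06% in all. The comparisons share samples, the first pair those of the stationary larvae, so their values are not independent. The fall of etaTry in prepupae was not shown to differ from its effect in stationary larvae (difference -1.96 ± 0.59, q = 0.0794).

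Most of the genes lie in groups, and Jon44E and Jon74E stand apart from the other members. In the deposited coordinates, whose build is not named in the sources used here, the 25B genes span arm 2L from 4949941 to 4955144, with 1485 and 1142 bases between neighbours. The 66C pair lies on arm 3L, Jon66Ci at 8384640 to 8385477 and Jon66Cii at 8385920 to 8386749, on opposite strands. The 99C genes lie on arm 3R from 25747938 to 25751911, and the 10 trypsin entries form 1 cluster on arm 2R. In the Ensembl gene models, matched by symbol for all 26, the proteins had 252 to 280 residues with a median of 264. A single exon was annotated for 21 of the 26, and Jon65Aii, Jon65Aiii, Jon65Aiv, Jon74E and Jon99Ci had more than 1. The called genes were found in both classes.

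The genes that flank the members were called higher at shares near those of all genes in both larval stages. The flanking genes are not all unrelated to the family. They include entries with the symbol CG30031, which the merged alphaTry entry also holds. In wandering larvae 42 entries within 10 kb of a member were tested. Of these 1 was called higher, beside 2.29% of all genes, and 4 lower, beside 9.49%, with a median log2 ratio of -0.03. The 1 called higher was CG10477, at 8.19 FPKM in trans-heterozygotes and 3.07 FPKM in w1118 (q = 0.0164). In stationary larvae 2 of 42 were called higher, beside 4.70% of all genes, and 8 lower, beside 13.2%. In prepupae 3 of 40 were higher, beside 4.03% of all genes, and 4 lower, beside 12.9%. The medians in stationary larvae and prepupae were -0.05 and -0.06. One of the higher entries was yip7, a serine protease gene beside the 65A genes, with 973 FPKM in trans-heterozygous stationary larvae and 461 FPKM in w1118 (q = 1.4e-06) and with 282 and 184 FPKM in prepupae (q = 0.00105). Next to the 25B genes the salivary glue gene Sgs1 was called higher in stationary larvae and prepupae (q = 0.0421 and 8.87e-06).

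Several trypsins cannot be fully separated. The alphaTry, betaTry and epsilonTry entries share 1 deposited locus with other entries, 5 in all, and the symbol CG30031 stands in 3 entries. gammaTry has 0 entries of its own. How reads of these similar copies were assigned is not described. In the isoform table, where alphaTry is listed alone, it had 230.1 FPKM in trans-heterozygous wandering larvae and 228 FPKM in w1118, and 183 and 194 FPKM in stationary larvae (q = 0.976). In prepupae alphaTry had 62.2 FPKM in trans-heterozygotes and 102 FPKM in w1118 there, without a test. The usage tables tested the merged entry in the larval stages and did not call it for promoters (q = 0.972 in wandering and 0.348 in stationary larvae) or coding sequences (q = 0.378 in stationary larvae).

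The start-site tables of the authors left many members untested, namely 22, 16 and 10 of 27 member start sites in stage order. Why they were not tested is not stated. Those called were higher for 4 members in stationary larvae (Jon25Bi, Jon99Ci, zetaTry and epsilonTry) and 2 in prepupae (Jon25Bi and Jon25Bii), and lower for etaTry in prepupae. For each of these the start-site level and log2 fold change were those of the gene itself. The direction could therefore not differ from that of the gene-level call, and it adds no support.

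Other gut genes were read from lists of related function. As a gauge for the list counts, 2.29%, 4.70% and 4.03% of all tested genes were called higher, in stage order. The shares called lower were 9.49%, 13.2% and 12.9%. Of 9 tested genes in a list of other proteases of the gut, which includes lysosomal cathepsins, 0 were higher and 1 lower in wandering larvae, and 4 were higher and 2 lower in stationary larvae. In prepupae 1 of 7 was higher and 1 lower. Every lower call was of a lysosomal cathepsin gene, CtsB1 at each stage and cathD in stationary larvae. Besides yip7 the serine protease genes Phae1 and Phae2 rose in stationary larvae, Phae2 to 10.9 FPKM in trans-heterozygotes against 2.26 FPKM in w1118 (q = 0.00127). CtsB1, which encodes cathepsin B, fell in stationary larvae to 432 FPKM in trans-heterozygotes, against 826 FPKM in w1118 (q = 1.1e-04).

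Genes for starch and sugar digestion were among those called. Of the other digestive enzymes 7 of 17 tested were higher in wandering larvae and 8 of 16 at the stationary stage, with none lower, and in prepupae 1 of 11 was higher and 1 lower. The amylase gene Amy-d had 172 and 103 FPKM in trans-heterozygous wandering and stationary larvae, against 20.7 and 8.15 FPKM in w1118, with q listed as 0 at both stages. The maltase gene Mal-A4 had 5.90 FPKM in trans-heterozygous wandering larvae and 0.699 FPKM in w1118 (q = 3.8e-05). The more abundant maltase gene Mal-A5 was called at no stage. It had 205 and 171 FPKM in trans-heterozygous wandering and stationary larvae, against 206 and 226 FPKM in w1118. In prepupae tobi, a glucosidase gene, fell to 1.46 FPKM in trans-heterozygotes, against 8.32 FPKM in w1118 (q = 8.16e-04).

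Of the 7 lysozymes, enzymes that digest bacterial walls, 2 rose in stationary larvae. LysS rose to 474 FPKM in trans-heterozygotes, against 121 FPKM in w1118 (q = 2.77e-05), and LysD to 499 FPKM, against 202 FPKM (q = 0.00275). In wandering larvae LysX alone was called, lower at 42.8 FPKM in trans-heterozygotes and 86.7 FPKM in w1118 (q = 0.00959), and none was called in prepupae. In the list for the peritrophic matrix, the lining of the gut lumen, 2 of 5 were higher in each larval stage and 1 of 4 in prepupae. The mucin gene Muc55B had 70.8 and 31.8 FPKM in trans-heterozygous wandering and stationary larvae, against 14.5 and 8.64 FPKM in w1118. The most abundant gene of that list, Peritrophin-15a, was not called in wandering larvae, at 252 FPKM in trans-heterozygotes and 400 FPKM in w1118 (q = 0.0801). The list summed to 463, 274 and 167 FPKM in trans-heterozygotes and 590, 301 and 125 FPKM in w1118, in stage order. The lists were chosen with earlier results of these data known, so their counts are descriptions.

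**Figure D4:**
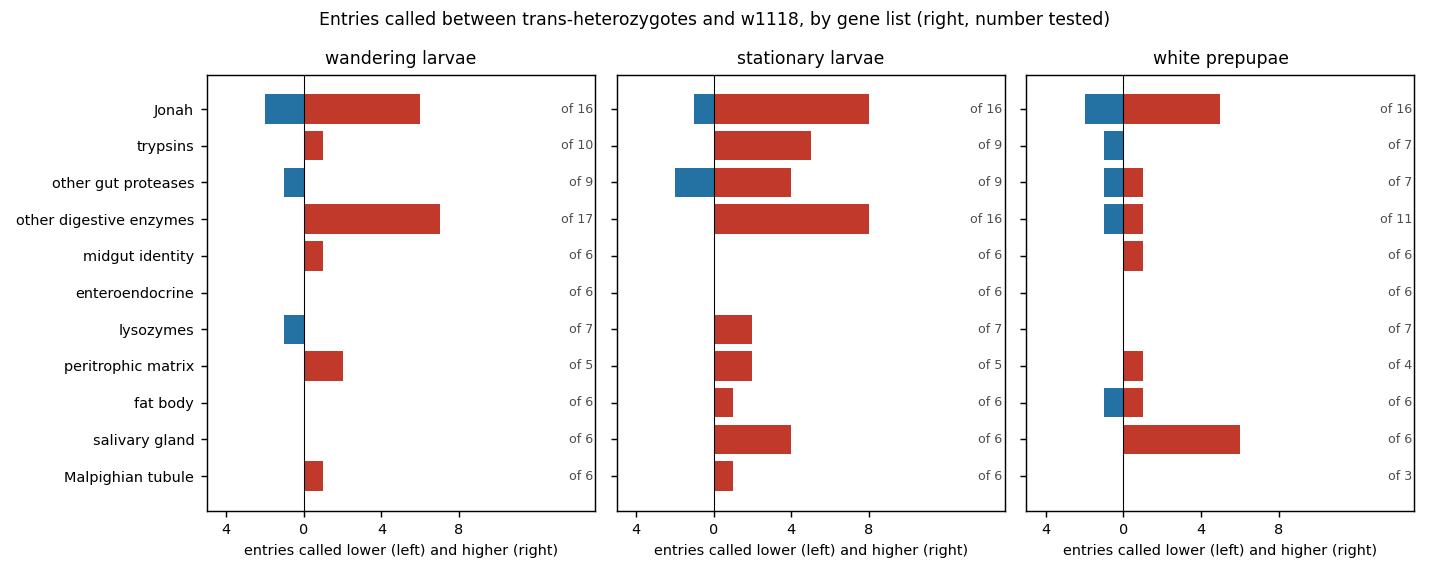
Entries called lower (bars to the left) and higher (bars to the right) in trans-heterozygotes against w1118 for each gene list, with the number tested at the right of each panel. In stationary larvae the Jonah, trypsin and other digestive enzyme lists have 8, 5 and 8 entries called higher, and the midgut identity and enteroendocrine lists have none.

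Of 6 tested midgut identity genes 1 was called higher in wandering larvae, 0 at the stationary stage and 1 in prepupae. The other listed gene, lab, was not tested at any stage. The median log2 ratio of the tested midgut identity genes was 0.28, 0.38 and -0.03 in stage order, beside -0.01, -0.04 and -0.05 over all tested genes. Npc1b, which serves sterol uptake, was the 1 in wandering larvae, with 7.15 FPKM in trans-heterozygotes and 3.75 FPKM in w1118 (q = 0.0219). In prepupae Npc1b was not called, at 1.73 FPKM in trans-heterozygotes and 3.21 FPKM in w1118 (q = 0.077). Myo31DF was the 1 in prepupae, with 45.2 FPKM in trans-heterozygotes and 30.1 FPKM in w1118 (q = 0.00643). mex1, a transcript of the midgut epithelium, had 79.6, 57.8 and 10.6 FPKM in trans-heterozygotes and 76.4, 38.6 and 11.8 FPKM in w1118 at the 3 stages, and was called at none. The 7 genes summed to 158, 145 and 82.0 FPKM in trans-heterozygotes and 142, 109 and 71.3 FPKM in w1118. None of the 6 enteroendocrine genes was called at any stage, with sums of 119.8, 118 and 109 FPKM in trans-heterozygotes and 132, 111 and 114 FPKM in w1118.

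Some genes of other organs were called as well. Of 6 tested salivary gland genes 4 were called at the stationary stage and all 6 in prepupae, each time higher, and 0 in wandering larvae. Sgs3, a glue gene that larvae transcribe before they pupariate, had 8545 FPKM in trans-heterozygous stationary larvae and 4905 FPKM in w1118 (q = 0.0453). Of 6 fat body genes 0 were called in wandering larvae, 1 was higher in stationary larvae, and 1 was higher and 1 lower in prepupae. In either direction 11.8%, 17.9% and 16.9% of all tested genes were called, in stage order. In the Malpighian tubule list the urate oxidase gene Uro was the 1 of 6 called higher in each larval stage, with 58.2 and 60.0 FPKM in trans-heterozygous wandering and stationary larvae, against 25.7 and 6.38 FPKM in w1118, and 0 of 3 were called in prepupae. The part of developmental timing, gut content or other organs in the protease differences was not tested.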

How the data were processed

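RNA-seq of whole animals was used from 18 samples. Reads were handled with Bowtie 1.1.1, Cufflinks and Cuffdiff, per the submitters' processing notes; settings are not stated. The genome build is not given in the sources used here, nor is the annotation. Of the 18 deposited tables the FPKM, log2 fold changes, p-values and q-values, test statistics and usage scores (a divergence) are the authors' Cuffdiff output, per the file headers. The w1118 and trans-heterozygote values are pooled over replicates, so no sample depth, spread or refit was possible. Python 3.11.15, pandas 2.3.3, numpy 2.4.6 and scipy 1.17.1 were used. Standard errors were computed as the size of the log2 fold change over that of the test statistic. Stage differences were tested on them with Benjamini-Hochberg adjustment. On simulated data this procedure missed most of the smaller true differences, so a difference that did not pass may still exist. List medians used log2 with a pseudocount of 1. Whether the 3 replicates came from separate cultures is not stated. Coordinates were turned to count from 1: on arm 2L 51.8% of starts lay 1 below those of RefSeq Release 6, and on 2R, 3R and X none matched, so the builds differ and none was converted. Of 90 listed symbols 13 had no entry. The members and lists were chosen with earlier results of these data known. Members called at any stage or reaching 100 FPKM were named, the others given by range. From each other list up to 4 called genes with the largest change and up to 2 abundant uncalled genes could be named per stage. Protein and promoter sequences were not analysed here.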

Additional observations from a re-analysis of the deposited data

Results flagged for a closer look

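For 5 member and stage pairs the genotype effect (trans-heterozygotes over w1118) differed between stages by the test of the difference itself. On the log2 scale the stationary minus wandering difference was 1.59 for Jon25Biii and 1.35 for thetaTry. The prepupae minus stationary difference was -1.73 for Jon25Biii, -1.24 for Jon99Ciii and -1.02 for Jon99Cii. Both sets use the samples of the stationary larvae and are not independent.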

How the results depend on the processing

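The values are pooled by the authors, so no replicate could be left out. No paired analysis was possible because the tables hold 1 pooled value per genotype and stage, with no values per replicate. In wandering larvae 7 members were higher and 2 lower; at a q of 0.10, 11 were higher, and at a q of 0.01 or with at least 2-fold changes 1 was lower. In prepupae 3 were lower, and 1 at a q of 0.01, with at least 2-fold changes, or through start-site groups or isoforms. Called through start-site groups or isoforms, 0 were higher and 0 lower in wandering larvae, 4 higher and 0 lower in stationary larvae, and 2 higher in prepupae; those tables left 22, 16 and 10 of 27 start sites and 24, 20 and 14 of 30 isoforms of the members untested, in stage order, and betaTry was tested there in stationary larvae and missed the threshold. The prepupal sums without Jon65Aiv were 1713 FPKM in trans-heterozygotes and 1731 FPKM in w1118, which turned their ratio to 0.990, against 1.17 with it. At a q of 0.01 for the stage difference, 1 member had a larger effect in stationary than in wandering larvae. The other 85 alternatives of counts, medians, sums and ratios, that ratio included, stayed within 1.5 times their value. Among them, chosen after seeing the data, was the fold of summed FPKM without Jon65Ai, Jon65Aiii and Jon65Aiv, at 1.36, 2.22 and 1.11 in stage order. Of 222 settings of single members 6 lost a call, at a q of 0.01, and 8 gained one, at a q of 0.10. Pooled FPKM without depth limit what can be said of members under 1 FPKM.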
